A study of Mus musculus with 24 samples.

Results

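The data set described here is the distal 3' UTR part of the m6A map of unirradiated WT myeloid cells, 1153 peaks out of 12181. A peak counted as a WT Ctrl peak when all 3 WT Ctrl IP libraries held an overlapping call (at least 1 bp, same strand), and it was distal when its summit lay in the 3' UTR of a protein-coding transcript on that strand and more than 200 genomic bases from every stop codon. The 1153 peaks, 9.47% of the WT Ctrl peaks, fell in 983 host genes, and 2 of them were assigned to exactly 2 genes. A peak shared by Gm38394 and the models annotated as Zc3h11a came on top of these. Of the 2005 WT Ctrl peaks with a summit in a 3' UTR, the other 852 lay within 200 bases of a stop codon. These peaks were chosen by their calls in the WT Ctrl libraries, so their enrichment there is a description and was not tested.

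The cells were CD11b+ cells sorted from MC38 tumours, a transplanted mouse colon carcinoma, in C57BL/6J mice. WT mice carried floxed Ythdf2 alleles (Ythdf2 fl/fl) without Cre, and cKO mice carried the same floxed alleles with Cre expressed from the Lyz2 locus, so that deletion was limited to cells in which that locus is active. Tumours received, per the study's methods, sham treatment (Ctrl) or a single dose of 20 Gy (IR), and the IR tumours were taken 3 days after it. Each of the 8 groups, 2 genotypes by 2 treatments by Input or m6A IP, had 3 libraries, each made from cells of several pooled mice, and the study's methods call these replicates technical in one place and biological in another, so p-values measure the spread between libraries.

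N6-methyladenosine (m6A) is written on mRNA by a methyltransferase complex with METTL3 and METTL14 at its core and WTAP as an adaptor, mostly within DRACH sequences (D for A, G or U, R for A or G, H for A, C or U). The mark is known to gather around stop codons and along 3' UTRs, where most sites that govern mRNA stability and microRNA binding also lie. YTHDF2, the protein deleted in the cKO, binds m6A in the cytoplasm and brings the CCR4-NOT deadenylase to the transcript. In macrophages YTHDF2 has been linked to the turnover of transcripts of inflammatory signalling.

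The following sequences show the core motif GGACT in distal 3' UTR peaks of named genes. Shown are the peaks named for strength, number per gene or a functional list that hold it within 50 bases of the summit. Of the 10 strongest peaks only those of Jaml, Ccn3 and Gbp7 held it there. The sequences were read on the transcript strand of the GRCm38 genome, 5' to 3', with the copy nearest the summit in capitals. They are ordered by the lowest fold of the peak over the WT Ctrl replicates, from 23.1 in Jaml to 1.46 in Klf6.
Jaml (chr9:45107755-45107783, + strand): aagctctccattGGACTggatctgtaacg
Ccn3 (chr15:54753294-54753322, + strand): aaaattaaacagGGACTctttcatagtta
Gbp7 (chr3:142548042-142548070, + strand): tggtttgatattGGACTttctgcagattt
Wtap (chr17:12974763-12974791, - strand): caataagactgtGGACTtcatgattgttg
Irf4 (chr13:30766780-30766808, + strand): tgctggggaccaGGACTcagagatctctg
Edc3 (chr9:57749806-57749834, + strand): aaagaggccagaGGACTgggagcctcagc
Klf6 (chr13:5867483-5867511, + strand): ttgggtgaccccGGACTcaccactggttc
The centre of the motif lay 11 bases downstream of the summit in both Jaml and Ccn3, 7 in Gbp7, 15 in Wtap and 28 in Edc3. In Irf4 and Klf6 it lay upstream, at -44 and -42 bases.

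Before the comparisons, the labels were checked against marker genes. Input libraries held 65180075 to 83661576 gene counts and IP libraries 68846321 to 86421888. Lyz2, into which Cre was inserted, stood at 19700 to 20900 CPM (counts scaled to the library's total) in the Inputs labelled WT and at 298 to 420 CPM in those labelled cKO. The IR IP libraries went against their labels, with 95.3 to 98.3 CPM of Lyz2 in those labelled WT IR and 20600 to 20900 CPM in those labelled cKO IR. They are therefore named by label throughout, and the comparisons of classes and of strengths of peaks over the 9 libraries outside WT Ctrl are also given for cKO Ctrl alone. Ythdf2 was not lower in the Inputs labelled cKO, a point taken up below because Ythdf2 is itself a host gene. The CD11b gene Itgam was present at 335 to 407 CPM in all Inputs, whereas the summed levels of the T cell, B cell, NK cell, fibroblast and tumour epithelium markers stayed at or below 1.42 CPM in every library. Endothelial markers summed to 1.65 to 3.72 CPM in the Inputs and 5.24 to 13.1 CPM in the IP libraries. The 3 haemoglobin genes summed to 20.2 to 23.2 CPM in the WT IR Inputs and to at most 0.0668 CPM in the other Inputs.

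Most distal peaks lay well into the 3' UTR, and few at its end. The summit was a median of 649 genomic bases from the nearest stop codon (quartiles 378 and 1127), 345 summits were over 1000 bases away and 16 were over 5000 bases away. Along the spliced 3' UTR of the longest matching transcript, the median position was 43.6% of its length (quartiles 25.4 and 65.3%), a median of 800 bases before the transcript end. The median position there was 630 bases from the stop codon (quartiles 354 and 1104), and the smallest was 8 bases. Genomic distances include introns, and 122 peaks lay in a spliced 3' UTR. In Tcaf1 the summit was 3067 genomic bases from the nearest stop codon but 38 bases along the 3' UTR. Cut into 5 equal segments from the stop codon to the end, the 3' UTRs held 199, 322, 272, 242 and 118 summits. Almost all summits, 1149 or 99.7%, were in the last exon. The rule on the stop codon removes summits from the segment next to it.

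**Figure D1:**
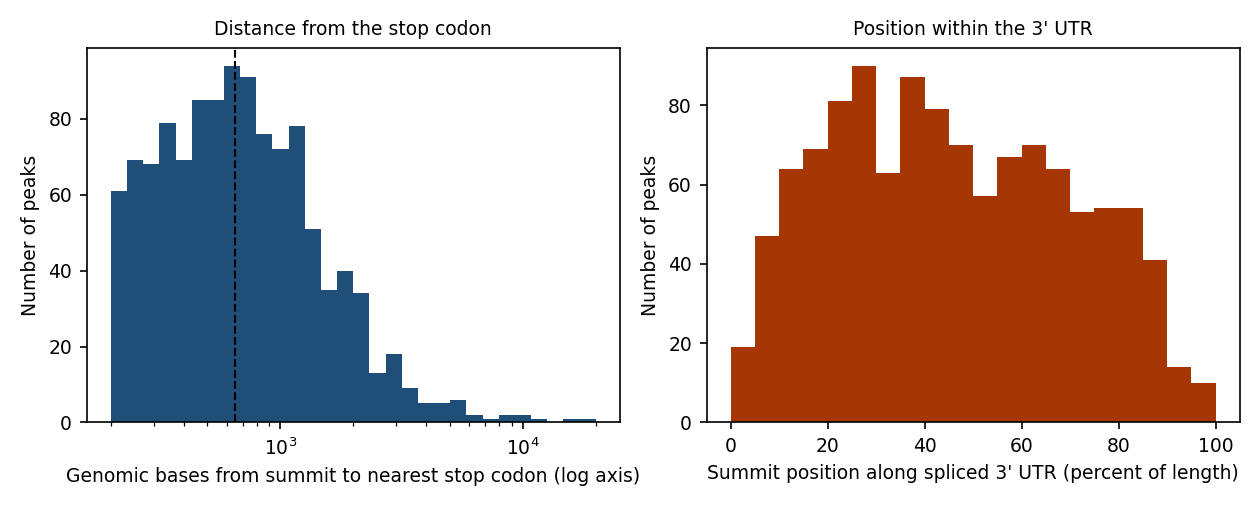
Left, number of distal 3' UTR peaks by the genomic distance in bases from summit to the nearest stop codon (log axis, dashed line at the median of 649). Right, number of peaks by summit position along the spliced 3' UTR in percent of its length, where counts were highest between 20 and 40% and low in the last 10%.

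Host genes had long 3' UTRs. The median of the longest annotated 3' UTR was 1582 bases in the 983 host genes and 1160 bases in the 12752 tested genes with a 3' UTR, and a long 3' UTR has more room beyond 200 bases. A near-stop peak, one within 200 bases of the gene's stop codon, was also present in 352 host genes and absent in 631. A peak in the coding sequence was present in 526, and 306 host genes had neither. Host genes were also well expressed, with a median mean Input level of 30.5 CPM in the 977 host genes tested and 10.3 CPM in all 16090 genes tested. Genes with other WT Ctrl peaks shared this. The median was 25.1 CPM with a near-stop peak and no distal peak, and 28.9 CPM with a coding peak and neither of these. It was 3.96 CPM in genes without a WT Ctrl peak.

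The peaks were wide and of moderate enrichment. Their merged width had a median of 494 bases, against 367 bases for the 2782 near-stop peaks and 282 bases for the 4757 peaks in coding sequence. The fold, which the authors' peak caller gives as enrichment over a control, had medians of 3.09, 3.10 and 3.09 in the 3 WT Ctrl replicates, and 226 peaks (19.6%) reached a fold of 4 in all 3. That share was 21.5% for near-stop and 27.2% for coding peaks. Across the replicates the fold of a peak varied with a median coefficient of variation of 13.8%. At the edge of the rule, the 94 peaks at 201 to 250 bases from a stop codon had a median lowest fold of 2.66 and the 150 peaks in 3' UTRs at 151 to 200 bases one of 2.58. By segment of the 3' UTR the median lowest fold was between 2.52 and 2.79.

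Core motifs were more frequent at the summits than elsewhere in distal 3' UTRs. GGACT occurred on the transcript strand in 158 of the 1153 windows of 101 bases centred on a summit, 13.7%. It occurred in 8.34% of 187639 windows of the same length that tile the distal 3' UTRs of all tested genes, and in 8.52% of the 11334 such windows of host genes that lay outside WT Ctrl peaks. Its reverse complement AGTCC, searched as a control for base composition, was in 8.67% of summit windows and 8.02% of all distal windows. The share of GGACT was 14.1% at near-stop summits and 10.8% at coding summits. Among peaks with a fold of at least 4 in all 3 replicates it was 17.7%, and among the others 12.7%.

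The related forms differed in how far they departed from the surrounding 3' UTR. GGACA was in 13.4% of summit windows and 9.52% of all distal windows, GGACC in 10.1 and 6.25%, GAACT in 12.7 and 10.3%, and AGACT in 14.5 and 11.1%. TGACT was in 11.9% of both. At least 1 of these 6 forms was in 55.4% of summit windows and 45.6% of all distal windows. Elements read by other 3' UTR factors were less frequent than in the surrounding sequence. The AU-rich pentamer ATTTA was in 8.67% of summit windows and 15.3% of all distal windows, the Pumilio-type element TGTANATA (N for any base) in 0.867 and 2.07%, and the polyadenylation signal AATAAA in 3.73 and 8.31%. Base composition moved with these shares, with 48.3% G and C at the summits and 43.4% in all distal windows, and its part in them was not tested.

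Read in bins of 50 bases, GGACT did not peak sharply at the summit. It was in 8.11% of bins centred 125 bases before the summit, in 7.02% just before and 7.04% just after it, and in 5.04 and 5.40% at the far ends. AGTCC stayed between 3.75 and 5.33% throughout. Positions of the summits were those of the replicate with the largest fold.

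**Figure D2:**
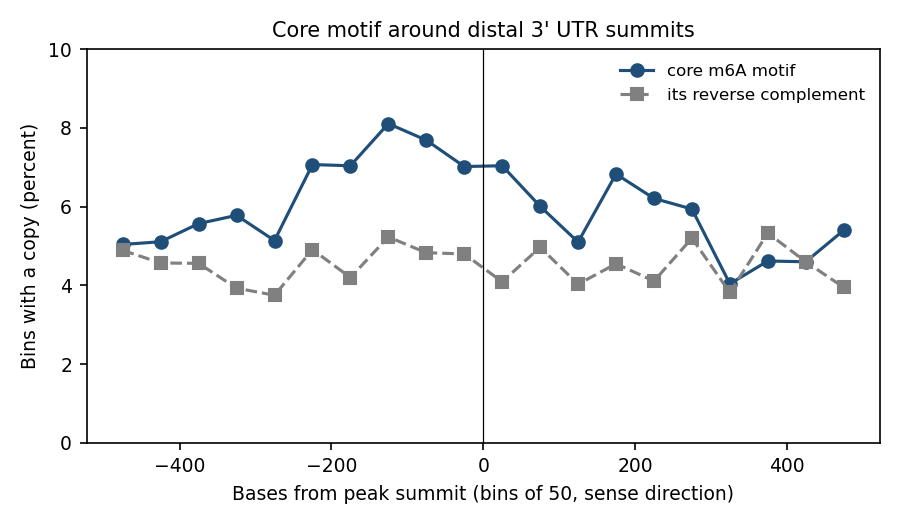
Percent of 50-base bins that hold the core motif on the transcript strand (circles) or its reverse complement (squares), by distance in bases from the summits of the distal 3' UTR peaks, for peaks whose bin lies within the 3' UTR. The motif was in 7.02 to 8.11% of bins from 225 bases before to 25 bases after the summit and in 4.04 to 6.83% further downstream, whereas the reverse complement stayed at or below 5.33%.

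The 5 strongest distal peaks were in Cass4, Adra2a, Jaml, Il1rl1 and Ccn3, whose mean WT Ctrl Input levels were low, at 3.24, 4.10, 4.10, 1.5 and 0.836 CPM. The largest lowest fold was that of Cass4, a Cas-family adhesion scaffold, on chr2:172432125-172433658 with a summit 302 bases from the stop codon. Its folds were 33.9, 24.4 and 28.7 in WT Ctrl. Next came Adra2a, the alpha-2A adrenergic receptor, at 24.1, 26.0 and 23.4, and Jaml, a leukocyte junctional adhesion molecule, at 25.1, 23.3 and 23.1. Il1rl1, the receptor for IL-33, had 22.4, 21.5 and 20.1 at a summit 2611 bases from the stop codon, and Ccn3, a secreted matricellular protein, had 19.5, 21.4 and 21.7. The other peaks among the top 10 were in Tcaf1, Gbp7, Fcgr1, Inhba and Aqp9, with lowest folds from 18.3 down to 13.8. These folds chose the genes and describe WT Ctrl only.

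In the 9 IP libraries that played no part in the choice, all of these top 10 peaks were found again. Cass4 had folds of 21.8, 23.8 and 19.4 in cKO Ctrl, 14.2, 20.4 and 22.2 in the libraries labelled WT IR, and 25.2, 29.2 and 27.9 in those labelled cKO IR. Ccn3 was as high outside WT Ctrl as in it, at 21.2, 23.0 and 22.4 in cKO Ctrl and between 22.6 and 24.8 in the 6 IR libraries. Adra2a was lower outside WT Ctrl, with 14.0, 9.67 and 14.5 in cKO Ctrl, 8.53 to 10.6 in the libraries labelled WT IR and 16.9 to 19.4 in those labelled cKO IR, and no library of another group reached the WT Ctrl values. Fcgr1, the high-affinity IgG receptor, had 18, 15.0 and 17.1 in WT Ctrl and 8.0, 7.92 and 10.1 in cKO Ctrl, while its Input level was 24.8 CPM ± 0.884 and 41.3 CPM ± 0.879 (SD, n = 3 each). These peaks were picked for their WT Ctrl values, and a fold divides by a control library whose level of the gene may differ, so the differences were not tested. By the lowest fold over all 12 libraries the leading peaks were those of Ccn3, Cass4, Il1rl1, Jaml, Tcaf1 and Cdca5, the last encoding sororin, which holds sister chromatids together. Cdca5 had folds of 12.2, 10.5 and 13.9 in WT Ctrl and between 13.0 and 20.3 in the other 9 libraries.

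**Figure D3:**
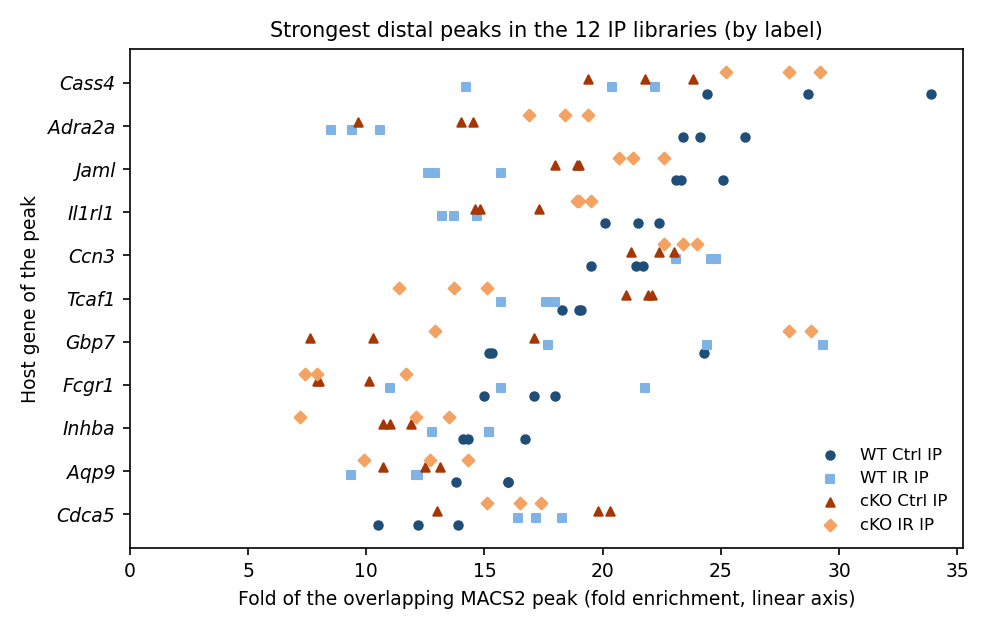
Fold of the authors' peak that overlaps each of the strongest distal 3' UTR peaks (linear axis), in 12 IP libraries named by label, 1 point per library. The first 10 host genes from the top were chosen by their WT Ctrl folds. In Adra2a the WT Ctrl points lie above those of every other group, whereas in Ccn3 and Cdca5 they lie among or below them.

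Most host genes, 840, had 1 distal peak, while 120 had 2, 17 had 3, 4 had 4 and 2 had 5. Inhba, which encodes the activin A subunit, carried 5 separate peaks along a 3' UTR of 4492 bases, at 549, 1972, 2775, 3800 and 4330 bases from the stop codon. Their lowest WT Ctrl folds were 14.1, 7.51, 8.04, 4.85 and 3.62, so enrichment was largest at the peak nearest the stop codon. The first 4 were found in all 9 other libraries and the last in 7. In WT IR IP replicate 3 by label, the peaks at 1972, 2775, 3800 and 4330 bases all had a fold of 14.1. A single call that spans several peaks counts for each, so these may not be separate findings. Gm38394 also had 5, but it overlaps Zc3h11a, a zinc-finger gene with annotated models at the same place, and 1 of these peaks was assigned to both, so its assignment is uncertain. The Gm38394 peaks at 1818, 2737 and 3255 bases along the 3' UTR also lay in coding sequence of another transcript. Over all 1153 distal peaks, 52 did so. Fem1a, a substrate receptor of a ubiquitin ligase, had peaks at 891, 3429, 3974 and 4418 bases from the stop codon, with the largest lowest fold, 7.50, at the last. Knop1 and Mfap3 had 4 each, with lowest folds of 1.94 to 4.10 and 1.57 to 2.55.

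The peaks were largely found again in the libraries that had no part in their choice. Of the 1153, 596 (51.7%) overlapped a peak in all 9 other IP libraries and 13 (1.13%) overlapped none. Other WT Ctrl peaks had similar shares, with 46.0 and 0.719% for near-stop peaks and 50.9 and 0.946% for coding peaks. The share of distal peaks found in a library was 86.7, 87.1 and 87.9% in cKO Ctrl. It was 79.1, 81.5 and 79.4% in the libraries labelled WT IR, and 77.8, 77.5 and 78.1% in those labelled cKO IR. These 3 sets of values did not overlap. cKO Ctrl exceeded the libraries labelled WT IR by 7.23 points and those labelled cKO IR by 9.45 points, and WT IR exceeded cKO IR by 2.23 points (exact permutation test, two-sided, 3 against 3, p = 0.1 for each pair and 0.1 adjusted over 3 pairs, the smallest p this design allows). The number of peaks called was 15503 to 16263 in cKO Ctrl, 14870 to 17442 in WT IR and 13470 to 14041 in cKO IR by label. It was lowest in the libraries with the lowest shares. WT IR replicate 2 by label had the most peaks of these 9 libraries, 17442, and a share of 81.5%. The part of peak number in these shares was not tested. Median folds of the peaks found differed little, from 2.84 to 3.22 over the 9 libraries.

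The reference classes behaved differently from library to library. In cKO Ctrl, near-stop peaks were found at 87.4, 90.8 and 89.1% and coding peaks at 85.1, 89.3 and 87.3%, so that distal peaks were 1.9 points below near-stop peaks, a difference of the same sign in all 3 libraries (exact sign-flip permutation test, two-sided, p = 0.25, the smallest p for 3 libraries). In the libraries labelled cKO IR near-stop peaks were at 68.6, 68.3 and 65.9%, while coding peaks were at 74.9, 75.2 and 74.9%. Over all 9 libraries distal minus near-stop averaged 2.60 points ± 5.87 (SD, n = 9) and was positive in 4 (exact sign-flip permutation test, p = 0.234), and distal minus coding averaged 0.0787 points ± 2.75 and was positive in 5 (p = 0.93, same exact test). Neither difference was larger than the spread between libraries.

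Among strong peaks the order was clearer. With a fold of at least 4 in all 3 WT Ctrl replicates, the 226 distal peaks were found more often than the 598 near-stop peaks in 9 of 9 libraries, by 4.35 points on average ± 3.12 (range 1.10 to 9.69). They were also found more often than the 1292 coding peaks in 9 of 9, by 4.78 points ± 3.88, with 0.313 points as the smallest difference. The exact sign-flip permutation test gave p = 0.00391 for both, the smallest p that 9 libraries allow, and the 9 libraries form 3 groups, so they are not 9 independent samples. In the 3 cKO Ctrl libraries alone, the differences were 3.04 points ± 1.69 and 4.11 points ± 2.24 (SD, n = 3), positive in all 3 (p = 0.25 for both by the same exact test, the smallest p for 3 libraries). Strength itself went with recovery, since when the distal peaks were split by fold into 4 groups of 288 or 289, the share found in all 9 libraries was 39.1% in the lowest group, 50.7 and 52.4% in the middle groups and 64.6% in the highest. The share found in all 3 cKO Ctrl libraries was 68.5% in the lowest group, 69.8 and 79.5% in the middle groups and 91.0% in the highest. No distal peak with a fold of at least 4 in all 3 WT Ctrl replicates was missing from all 9 other libraries. The classes also differed in width, with medians over all peaks of 494 bases for distal, 367 for near-stop and 282 for coding peaks. A wider peak has more room to overlap a call. An overlap of at least 50% was asked for only over all peaks, so the part of width among strong peaks was not tested.

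**Figure D4:**
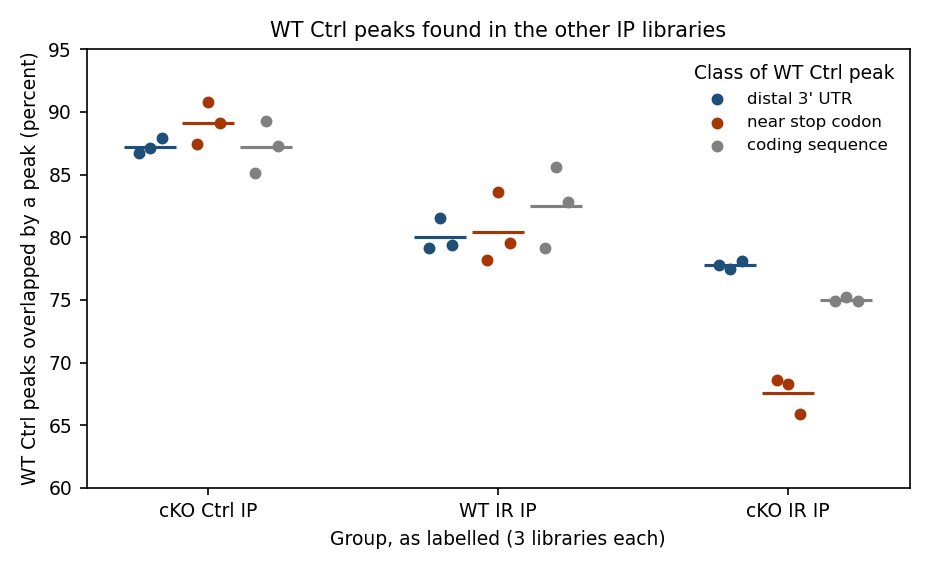
Percent of WT Ctrl peaks overlapped by a peak in each of the 9 other IP libraries, by class of peak (1153 distal 3' UTR, 2782 near stop codon, 4757 coding sequence). Points are libraries, bars are means of 3, groups are named by label, and the vertical axis runs from 60 to 95%. Distal peaks lie between 77.5 and 87.9%, and near-stop peaks drop to 65.9 to 68.6% in the libraries labelled cKO IR.

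The antibody also enriched the host transcripts in cKO Ctrl, a group with Input and IP libraries that the choice did not use and whose Lyz2 levels fitted their labels. In the edgeR quasi-likelihood fit of all 24 libraries, 877 of 977 host genes (89.8%) were higher in IP than in Input (adjusted p under 0.05). The share was 37.8% of the 17373 genes tested. Lower were 63 host genes (6.45%), against 36.0% of all genes tested. The median log2 ratio of IP over Input was 0.95 in host genes and 0.019 in all genes tested. Genes with a near-stop peak and no distal peak stood close by, with 88.7% of 2033 higher and a median of 0.90. Of 1263 genes with a coding peak and no distal or near-stop peak, 81.6% were higher, with a median of 0.67. Ccn3 had the largest ratio among the named genes, 6.76 on the log2 scale (adjusted p = 2.8e-33), followed by Il1rl1 at 5.19 (adjusted p = 1.4e-29) and Cass4 at 4.32 (adjusted p = 2.7e-29). Counts cover the whole transcript, so a ratio holds every peak of the gene. On the lists described below, Csf2rb, Il6ra, Ddx6, Klf6, Klf13 and Nfkbie were lower in IP than in Input with a distal peak, by log2 ratios from -0.26 in Ddx6 to -0.10 in Nfkbie.

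The next question was how host transcripts changed 3 days after irradiation in WT cells. In the edgeR quasi-likelihood test of the 12 Inputs (Benjamini-Hochberg adjusted p under 0.05), 324 of 977 host genes (33.2%) were lower after irradiation of WT mice and 115 (11.8%) were higher, where 17.0% of all 16090 genes tested were lower and 14.7% higher. The median log2 change was -0.069 in host genes and 0.0057 in all genes. Of the 977 host genes, 35 were called at least 2-fold lower and 3 at least 2-fold higher. These counts were 460 and 241 among all 16090 genes tested. Among genes with a mean Input level of at least 10 CPM, 33.0% of 779 host genes and 24% of 8123 genes were lower. Of the 2027 genes with a near-stop peak and no distal peak, 31.8% were lower. Genes without any WT Ctrl peak had 11.9% lower and 16.2% higher. In bulk samples fewer cells of a type and less RNA per cell cannot be told apart, and the haemoglobin transcripts noted above were higher in the same WT IR Inputs, and their part in these values was not tested.

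Among called host genes of at least 5 CPM without overlap of replicates, those with the largest fall in WT IR were Kif11, Pclaf, Nusap1 and Racgap1. Kif11, the spindle motor Eg5, stood at 32.4, 31.0 and 31.9 CPM in WT Ctrl and at 8.27, 9.81 and 9.49 CPM in WT IR (log2 change -1.79 ± 0.0694 SE, adjusted p = 1.1e-13). Pclaf, a PCNA-binding factor of DNA replication, fell from 15.9, 15.6 and 16.8 CPM to 3.60, 6.09 and 4.88 CPM (-1.73 ± 0.125, adjusted p = 1.1e-09). Nusap1, a spindle microtubule protein, and Racgap1, which acts in cytokinesis, had log2 changes of -1.66 (adjusted p = 2.7e-12) and -1.60 (adjusted p = 1.1e-13). For all 4 genes the replicates of the groups did not overlap. The same genes were already lower by a smaller amount in cKO Ctrl than in WT Ctrl in 3 cases, with log2 values of -0.37 for Kif11 and Nusap1 and -0.26 for Racgap1, whereas Pclaf at -0.28 did not pass the test (adjusted p = 0.11).

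By the same rule, 3 of the 4 host genes with the largest rise were targets of p53, the transcription factor activated by DNA damage. Phlda3, an inhibitor of AKT signalling, went from 12.5, 13.6 and 12.3 CPM to 38.2, 29.7 and 30.9 CPM (log2 change 1.36 ± 0.0811 SE, adjusted p = 6.1e-11). Cdkn1a, which encodes the cell cycle inhibitor p21, went from 88.0, 86.5 and 87.2 CPM to 196, 199 and 201 CPM (1.19 ± 0.032, adjusted p = 3.5e-16). Ccng1 (cyclin G1) rose by 0.93 and Mdm2, the ubiquitin ligase of p53, by 0.55, and Bbc3, the apoptosis inducer PUMA, by 0.73 on the log2 scale, each past the test. Cd80, a costimulatory ligand for T cells with 3 distal peaks, completed the genes with the largest rise, from 23.9 to 42.5 CPM (0.83 ± 0.0843, adjusted p = 1.5e-07). Of 18 p53 targets listed, 16 were higher and 1 lower in WT IR, where 14.7% of all genes tested were higher and 17.0% lower. All 5 that are host genes were among the higher. In cKO, from cKO Ctrl to cKO IR, the same counts were 16 and 1, with all 5 host genes higher, where 21.8% of all genes tested were higher.

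**Figure D5:**
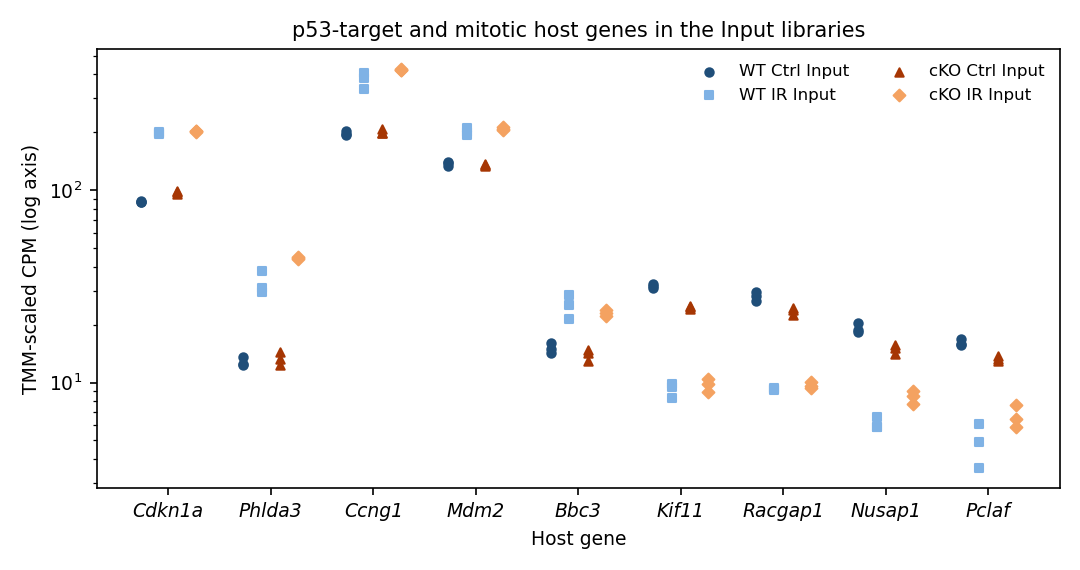
TMM-scaled CPM (log axis) of 9 host genes in the 12 Input libraries, 1 point per library, coloured by group. Cdkn1a, Phlda3, Ccng1, Mdm2 and Bbc3 are higher in both IR groups than in both Ctrl groups, and Kif11, Racgap1, Nusap1 and Pclaf are lower, without overlap between IR and Ctrl libraries of a genotype.

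The peaks of the p53 targets differed in strength. Phlda3 had folds of 8.02, 4.52 and 4.37 in WT Ctrl and was found in all 9 other libraries, with folds of 3.43 to 4.14 in cKO Ctrl. The distal peak of Cdkn1a was weak, at 1.65, 1.64 and 2.02, and overlapped no peak in any of the other 9 libraries. The 2 peaks of Mdm2 were found in 9 and 7 libraries, that of Bbc3 in 8 and that of Ccng1, with a lowest fold of 1.33, in 4.

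The next comparison was between the Inputs labelled cKO and those labelled WT, which the study made to ask what the loss of YTHDF2 changes, although Ythdf2 counts did not show that loss in these libraries. Without irradiation, 178 of 977 host genes (18.2%) were higher and 65 (6.65%) lower in cKO Ctrl than in WT Ctrl, where 8.05% of all genes tested were higher and 7.61% lower. The median log2 difference was small, 0.046 in host genes and -0.0011 in all genes. No host gene was called at least 2-fold higher, beside 72 of all 16090 genes tested. The 65 lower calls became 42 without cKO Ctrl replicate 1, 43 without WT Ctrl replicate 3 and 100 in a fit of the 6 libraries compared. The share of higher calls was 12.6% in genes with a near-stop peak and no distal peak, 12.9% in genes with a coding peak alone and 5.87% in genes without a WT Ctrl peak. Among genes of at least 10 CPM it was 20.7% in host genes and 12.8% in all, and in the 142 host genes with at least 2 distal peaks it was 23.9%. This comparison shares its WT Ctrl libraries with the irradiation comparison in WT, and the peaks were also defined in WT Ctrl, although in IP libraries.

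By the same rule the largest rise in cKO Ctrl was that of Ythdf2. In Input it stood at 95.6, 96.8 and 98.1 CPM in WT Ctrl and 174, 185 and 175 CPM in cKO Ctrl, higher and not lower in the libraries labelled cKO (log2 difference 0.88 ± 0.0359 SE, adjusted p = 6.0e-13). In IR it was 105, 104 and 107 CPM in WT and 231, 220 and 217 CPM in cKO (1.08 ± 0.036, adjusted p = 1.6e-14). Counts cover the whole gene and cannot show a deleted exon. Its distal peak, 696 bases from the stop codon, had folds of 2.37, 2.97 and 2.37 in WT Ctrl. In the libraries labelled WT IR they were 3.88, 3.13 and 3.71, and no peak overlapped the Ythdf2 peak in cKO Ctrl or in those labelled cKO IR. Ythdf2 stood at 219 to 228 CPM in the WT Ctrl IP libraries and at 196 to 215 CPM in cKO Ctrl IP. By label it was 162 to 182 CPM in WT IR IP and 199 to 208 CPM in cKO IR IP, labels that Lyz2 went against. A fold divides by a control whose level may differ, and whether the missing calls reflect less m6A was not tested.

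The other host genes with the largest rise in cKO Ctrl were Ifi203, Fcgr1 and Il20rb. Ifi203, an interferon-inducible DNA sensor family member, rose from 23.8 to 42.4 CPM (0.84 ± 0.0718 SE, adjusted p = 5.1e-08), Fcgr1 from 24.8 to 41.3 CPM (0.74 ± 0.0679, adjusted p = 1.4e-07), and Il20rb, a receptor chain for IL-20 family cytokines, from 4.13 to 6.84 CPM (0.73 ± 0.0907, adjusted p = 7.3e-06). None of the 18 interferon-induced genes listed was a host gene, yet all 18 were higher in cKO Ctrl, against 8.05% of all genes tested. The largest falls were in Gapt and Mycl, both with a log2 difference of -0.56, Gcnt2, a glycosyltransferase, at -0.50, and Hmgn2, a nucleosome-binding protein, at -0.48. For Hmgn2 the replicates were 100, 103 and 101 CPM in WT Ctrl and 71.4, 70.5 and 75.2 CPM in cKO Ctrl (adjusted p = 9.1e-08).

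After irradiation the genotypes differed at more host genes, with 361 (36.9%) higher in cKO IR and 206 (21.1%) lower, where 23.9% of all genes tested were higher and 23.8% lower. Among genes of at least 10 CPM the shares were closer, with 39.4% of host genes and 35.1% of all genes higher, and 23.7 and 33.9% lower. The median log2 difference was 0.074 in host genes. It was 0.19 in genes with a near-stop peak and no distal peak, of which 50.3% were higher, so near-stop genes lay above host genes in this comparison. Host genes with at least 2 distal peaks were evenly split, with 30.3% higher and 30.3% lower. Wfdc17, a secreted WAP-domain protein of macrophages, rose most, from 70.9, 59.7 and 67.9 CPM in WT IR to 183, 165 and 164 CPM in cKO IR (1.37 ± 0.0626 SE, adjusted p = 1.1e-12), followed by the non-classical MHC gene H2-T24 at 1.35 and Fcgr1 at 1.25. Tns1, a focal adhesion protein, fell most, from 62.3, 58.0 and 60.4 CPM to 27.9, 25.5 and 26.0 CPM (-1.19 ± 0.0503, adjusted p = 3.5e-13). B3gnt7, a glycosyltransferase, had -0.92, Irs2, an insulin receptor substrate, -0.73 and Vdr, the vitamin D receptor with 3 distal peaks, -0.69, all called and without overlap of replicates. H2-T24 belongs to a family of closely related MHC genes, so its counts may be shared with paralogs.

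Irradiation in cKO lowered 385 host genes (39.4%) and raised 224 (22.9%), where 23.8% of all genes tested were lower and 21.8% higher. Among genes of at least 10 CPM, 42.0% of host genes and 37.2% of all genes were lower, and 24.8 and 30.9% were higher. The median log2 change was -0.072 in host genes and 0.010 in all genes. In host genes with at least 2 distal peaks 51.4% were lower, and in those with 1 peak 37.4%. The interaction, which subtracts the WT effect of irradiation from the cKO effect, was called for 366 host genes, 198 (20.3%) above and 168 (17.2%) below 0, with 15.0% above and 15.2% below among all genes tested. Among genes of at least 10 CPM this order turned, with 22% of host genes and 23.2% of all genes above 0, and 20.9 and 26.8% below. Genes with a near-stop peak and no distal peak leaned upward in it, at 34.7% above and 10.8% below. The comparisons between genotypes and within them share libraries and are not independent of each other.

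Host genes on the functional lists gave 28 named genes, of which the m6A machinery held 3 of 14 listed. Of all genes tested, 6.07% were host genes. The hosts among the m6A machinery are Mettl14 and Wtap of the methyltransferase and the reader Ythdf2. Wtap had folds of 4.85, 5.08 and 4.71 in WT Ctrl and was found in 7 of the 9 other libraries. Input libraries held it at 96.8 CPM ± 1.54 in WT Ctrl and 110 CPM ± 1.03 in cKO Ctrl (SD, n = 3 each, log2 difference 0.19, adjusted p = 0.0011). In IR it was 90.7, 99.5 and 93.6 CPM in WT and 132, 130 and 130 CPM in cKO (0.47, adjusted p = 2.3e-09). Mettl14 did not pass the test in any of the 5 comparisons. Of all 14 genes, 3 were higher and 8 lower in cKO IR than in WT IR, where 23.9% of all genes tested were higher and 23.8% lower.

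Of 32 mRNA decay genes, 4 were hosts. They were Cnot2 of the CCR4-NOT complex, the helicase Ddx6, the decapping enhancer Edc3 and Btg1, a CCR4-NOT partner. Btg1 rose in WT IR by 0.38 (adjusted p = 2.5e-08) and Ddx6 by 0.32 (adjusted p = 0.00023) on the log2 scale, and Ddx6 was lower in cKO IR than in WT IR by a log2 difference of -0.28. The distal peak of Btg1 was among the weakest, with folds of 1.49, 1.47 and 1.36, and overlapped none in the other 9 libraries. The list as a whole had 5 genes higher and 20 lower in cKO IR than in WT IR, beside the same 23.9 and 23.8% of all genes tested.

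Cytokine and chemokine receptors gave 8 hosts of 26 listed, Il1rn being the secreted antagonist on that list. In cKO Ctrl 6 of these 8 were higher and 0 lower than in WT Ctrl, and 14 of all 26 were higher and 2 lower, where 8.05% of all genes tested were higher and 7.61% lower. Ccr2, the chemokine receptor that brings monocytes into tissue, had 147, 146 and 155 CPM in WT Ctrl, 67.5, 86.7 and 78.1 CPM in WT IR, 198, 203 and 192 CPM in cKO Ctrl and 100, 93.5 and 91.1 CPM in cKO IR. It was thus lower after irradiation in both genotypes (log2 change -0.94 in WT and -1.06 in cKO, adjusted p = 2.7e-10 and 3.1e-11 by edgeR) and higher in cKO at both states (0.41 and 0.29), while its interaction did not pass the test (adjusted p = 0.36). It carried 2 distal peaks, both found in all 9 other libraries, with folds of 7.97, 9.05 and 5.57 at the stronger. The summit of the stronger peak lay 5985 genomic bases from the nearest stop codon but only 11 bases along its spliced 3' UTR. Il10ra and Il1rn were also higher in cKO than in WT at both states. Il6ra was lower after irradiation by -0.55 in WT and -0.88 in cKO, with a difference between genotypes that passed the test (interaction -0.34, adjusted p = 8.7e-05).

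Myeloid transcription factors gave 6 hosts of 37 listed and inhibitors of NF-kB 2 of 22. Irf4, a factor of macrophage and dendritic cell differentiation, rose in WT IR from 65.1 to 103 CPM (0.66 ± 0.0461 SE, adjusted p = 6.5e-10) and in cKO IR by 0.39, and its peak, which holds the GGACT copy shown above, was found in all 9 other libraries with folds of 1.97 to 3.19 against 4.18 to 7.98 in WT Ctrl. Klf13 was lower in WT IR by -0.21 and in cKO IR by -0.58 on the log2 scale, and Klf6 was higher by 0.21 and 0.30. Jun, Atf3 and Egr1, immediate early genes, completed the hosts of the list. Both NF-kB inhibitor hosts, Nfkbie and Tnfaip8l2, were higher in cKO than in WT at both states. Of all 22 genes on their list, 9 were higher and 0 lower in cKO Ctrl than in WT Ctrl (8.05 and 7.61% of all genes tested), and with irradiation, cKO IR against WT IR, 11 were higher and 5 lower (23.9 and 23.8%). Tnfaip8l2, which restrains Toll-like receptor signalling, had 30.4, 30.4 and 32.7 CPM in WT Ctrl and 42.6, 42.1 and 39.7 CPM in cKO Ctrl (0.41 ± 0.0586 SE, adjusted p = 3.5e-05), and 25.9 and 41.9 CPM on average in WT IR and cKO IR (0.69, adjusted p = 7.9e-09). Its peak was found in all 9 other libraries, that of Nfkbie in 1.

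Inhba, with its 5 peaks, rose with irradiation in both genotypes. The Input libraries held 17.2, 17.2 and 17.4 CPM in WT Ctrl, 19.9, 24.7 and 24.3 CPM in WT IR, 21.1, 19.9 and 21.3 CPM in cKO Ctrl and 36.7, 32.6 and 33.9 CPM in cKO IR. The log2 change with irradiation was 0.41 in WT (adjusted p = 0.00014) and 0.73 in cKO (adjusted p = 3.6e-08), and its difference, 0.32, passed the test (adjusted p = 0.02). That call was lost without cKO Ctrl replicate 2 (0.29, adjusted p = 0.058) and without cKO IR replicate 1 (0.27, adjusted p = 0.065). The difference of cKO Ctrl from WT Ctrl, 0.26 (adjusted p = 0.016), lost the call when 1 library was left out in 4 of 6 cases.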

How the data were processed

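The authors, per the study's methods, trimmed reads, aligned them to mm10 (GRCm38) with strand-specific settings and GENCODE vM19, counted reads per gene with HTSeq, and called peaks in each library with MACS2, separately for the strands. The deposited gene values are raw counts. The deposited peak lists hold a fold enrichment (a ratio over a control), −log10 p-value, −log10 q-value and a score, and which Input served as control was not stated.

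Here, GENCODE vM21 on GRCm38 supplied exons, stop codons and symbols, and all 987 host transcripts compared matched the genome sequence. Gene identifiers were matched without version. Counts were tested with edgeR 4.0.16 in R 4.3.3 (quasi-likelihood, TMM, at least 10 counts in 3 libraries, 12 Inputs in one fit; 24 libraries for IP over Input), with Benjamini-Hochberg adjustment over all genes. Levels are TMM-scaled CPM, except Lyz2, Itgam, marker sums and the IP levels of Ythdf2, which are unscaled. The script was tested on simulated data. Alternatives were DESeq2 1.42.0, other scalings and filters, other peak rules and single libraries left out. Genes were named as the 10 strongest peaks, the 5 hosts with most peaks, hosts on 7 functional lists, the 4 largest rises and falls of 3 comparisons (at least 5 CPM, no overlap), and the 6 peaks strongest over all libraries; details of peaks on chromosome 18 and of a listed gene are not reported here. Members and lists were chosen with earlier results of these data known.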

Additional observations from a re-analysis of the deposited data

Results flagged for a closer look

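For 6 of the 8 host genes with the largest rise or fall in WT IR, the irradiation effect differed between genotypes by the edgeR interaction test (effect in cKO minus effect in WT, log2 scale, 3 libraries per group). The same test called 366 of all 977 host genes, 20.3% above and 17.2% below 0, beside 15.0 and 15.2% of all genes tested. The difference was 0.84 for Nusap1 (adjusted p = 9.2e-06), 0.73 for Pclaf (adjusted p = 0.0028), 0.45 for Kif11 (adjusted p = 0.0013) and 0.33 for Racgap1 (adjusted p = 0.0065), all of which fell less in cKO. For Phlda3 it was 0.38 (adjusted p = 0.015), a larger rise in cKO, and this call was lost without WT Ctrl replicate 2 (0.33, adjusted p = 0.051) and without cKO Ctrl replicate 2 (0.32, adjusted p = 0.054). For Cdkn1a it was -0.13 (adjusted p = 0.038), and the call was lost in 11 of the alternatives tried. These genes were picked for a large effect in WT, and the interaction uses the same WT libraries. Between the irradiated groups, cKO IR against WT IR, Kif11 (log2 0.082, adjusted p = 0.38) and Racgap1 (0.071, adjusted p = 0.4) did not pass the edgeR test. Without irradiation both were lower in cKO (-0.37 and -0.26). Nusap1 (0.47, adjusted p = 8.6e-05) and Pclaf (0.45, adjusted p = 0.0072) were higher in cKO IR. Pclaf lost this call without cKO IR replicate 1 (0.34, adjusted p = 0.059). Groups of 3 libraries were not examined for outlying samples.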

How the results depend on the processing

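The number of distal peaks fell from 1153 to 225 when peaks were rebuilt from calls with a fold of at least 4 in all 3 replicates and to 724 beyond 500 bases from every stop codon, and it was 1342 to 1355 without a replicate of WT Ctrl. The share of summit windows with GGACT was 6.24% with 25 bases to each side and 24.1% with 100. The mean difference in refound share between distal and near-stop peaks, 2.60 points, was -1.9 points in the 3 cKO Ctrl libraries alone and 4.35 points for peaks with a fold of at least 4, and 1.41 to 3.39 points without 1 library. The mean difference between distal and coding peaks, 0.0787 points, was 4.78 points for such strong peaks, -0.0615 points when an overlap of at least 50% was asked for, -0.0181 points in the cKO Ctrl libraries, and -0.309 to 0.603 points without 1 library; the cause was not tested.

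Counts of called host genes in both directions together moved by less than 1.5 times under DESeq2, other scaling, filters, fits of fewer libraries and without 1 library. By direction, the 65 lower calls in cKO Ctrl moved further, to 42 and 43 without cKO Ctrl replicate 1 and without WT Ctrl replicate 3 and to 100 in a fit of those groups alone. Same-numbered replicates did not deviate together (correlations from -0.0429 to 0.0181), so the numbers do not pair the samples; with the replicate block the called host genes were 431 against 439 for irradiation in WT, 598 against 609 for irradiation in cKO, 218 against 243 for genotype without irradiation, 552 against 567 for genotype with it, 341 against 366 for the interaction, and 876 against 877 for enrichment in cKO Ctrl. Of 189 called effects of named genes, 23 lost the call under at least 1 alternative and 0 changed sign. For the number and recovery of peaks, leaving out single IP libraries, and the strong peaks in cKO Ctrl alone (3.04 points against near-stop and 4.11 against coding peaks), were added after seeing the data. At this depth, folds near the weakest peaks, such as those of Cdkn1a and Btg1, limit what a missing peak shows.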
